A study of Rattus norvegicus with 25 samples.

Results

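The rows rno-miR-322-5p, rno-miR-322-3p, rno-miR-351-5p, rno-miR-450a-5p, rno-miR-450b-5p and rno-miR-503-5p were taken by name from a table of small RNA reads, 6 of the 764 rat mature miRNAs listed. Their hairpins lie together on the X chromosome and form a miRNA cluster known for its role in muscle cell differentiation. The members were chosen by their read counts in these libraries, that is by their uneven presence and by the level of miR-351-5p, with the comparison of trained and sedentary rats in view. The prefix rno, for the rat, is left out below. Presence and levels are therefore given as a description, and nothing is rested on them.

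The reads came from mitochondria isolated from the red portion of the gastrocnemius, an oxidative hindlimb muscle, of male Wistar-Kyoto rats, 1 library for each of 25 animals. The rats arrived at 4 weeks of age and were allocated at random at 5 weeks. In the trained group (n = 13) they had treadmill running sessions 5 times weekly over 4 weeks, and in the sedentary group (n = 12) they stood on a stationary treadmill for as long. No other genotype, age or agent is given in the labels. All 25 preparations, from about 100 mg of muscle each, were treated before lysis with RNase A (312 µg, 1 h, 37 °C), an enzyme that digests RNA outside the organelle. Whole muscle and untreated mitochondria were not analysed here, so a count does not show where in the muscle a miRNA lay. The isolation kit was one made for mouse tissue. A library is named here by its group and the number in its title. Nothing in the labels gives litter or day of preparation, and p-values measure the spread between these animals only.

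A miRNA cluster is a run of hairpins that can be cut from a shared primary transcript. Each hairpin yields a 5p and a 3p strand, one of which is usually kept while the other is degraded. Bases 2 to 8 of the mature strand, the seed, largely set which messenger RNAs it represses. miR-322 (called miR-424 in humans) and miR-503 are known to rise when myoblasts leave the cell cycle, and they repress cell-cycle genes such as Cdc25a. In the RefSeq tables of the rat assembly GRCr8 the 6 hairpins stand on the minus strand, read in the order miR-322, miR-503, miR-351, miR-542, miR-450b and miR-450a, with 1 annotated long noncoding RNA gene starting between miR-351 and miR-542. No source used here names the build or miRNA annotation behind the counts, so no coordinates are printed.

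The mature sequences of the 6 members, from RefSeq (GRCr8), show which rows share a seed and which could share reads. Each is written 5′ to 3′ with the seed in capitals.
miR-322-5p: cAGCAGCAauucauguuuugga
miR-503-5p: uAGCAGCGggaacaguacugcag
miR-450a-5p: uUUUGCGAuguguuccuaaugu
miR-450b-5p: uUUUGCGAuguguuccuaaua
miR-351-5p: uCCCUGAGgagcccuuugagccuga
miR-322-3p: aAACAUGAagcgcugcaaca

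miR-450a-5p and miR-450b-5p have the same seed and are identical over their first 20 bases. Over the 21 positions they have in common they differ by G21A (base of miR-450a-5p, position from the 5′ end, base of miR-450b-5p). miR-322-5p and miR-503-5p share all seed bases but the last, A8G. miR-351-5p has the seed of the miR-125 (lin-4) family, and miR-322-5p that of miR-16 and miR-195. The relatives used for comparison below read as follows.
miR-125a-5p: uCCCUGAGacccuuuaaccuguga
miR-125b-5p: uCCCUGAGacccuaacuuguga
miR-16-5p: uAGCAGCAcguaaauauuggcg
miR-195-5p: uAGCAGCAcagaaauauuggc

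The libraries were shallow. Total miRNA counts ranged from 26793 to 202388 in trained and from 12181 to 186006 in sedentary rats, and a two-sided permutation test of the mean total gave p = 0.706. Of the 764 rows, 260 had a count in any library and 40 in all of them. Skeletal muscle markers took 20.0% to 36.1% of counts in trained and 20.0% to 36.9% in sedentary libraries. A marker is called detected, here and below, if it had a count in any library. Of the 8 listed markers 7 were detected, miR-499-5p in only 5 libraries (412 counts), and the slow-muscle miR-208b-3p was at 0. Levels below are in CPM, that is reads of a row for every 1000000 counts in its library. Some abundant rows had near-equal totals, such as miR-1-3p (241423) and miR-3571 (241335), or miR-378a-3p (136920) and miR-3557-5p (137458). The same reads may stand in both rows of such a pair, and so more than once in a library total. CPM, shares and depth all rest on these totals. Mature miRNAs are of nearly equal length (20 to 25 bases for the 6 members), so CPM was compared between rows without a length correction.

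miR-351-5p was the only one of the 6 members with a count in all 25 libraries. It had 3615 counts in all, the 45th highest total of the 764 rows, and held 81.5% of the 4435 counts of all 12 rows of the cluster. The other members with a count were miR-450a-5p and miR-450b-5p (109 counts each, 5 libraries), miR-322-3p (75 counts, 6 libraries) and miR-503-5p (33 counts, 3 libraries). miR-322-5p had 0 counts in every library. With a limit set at 3 counts, 0 of 2094773 counts allows up to 1.43 CPM over all libraries, and 0 in 1 library allows between 14.8 and 246 CPM depending on its depth. These limits, and the exact intervals given for counts above 0, cover counting error only. The labels name no molecular identifiers, so copies made over 20 PCR cycles may be counted as separate reads.

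**Figure D1:**
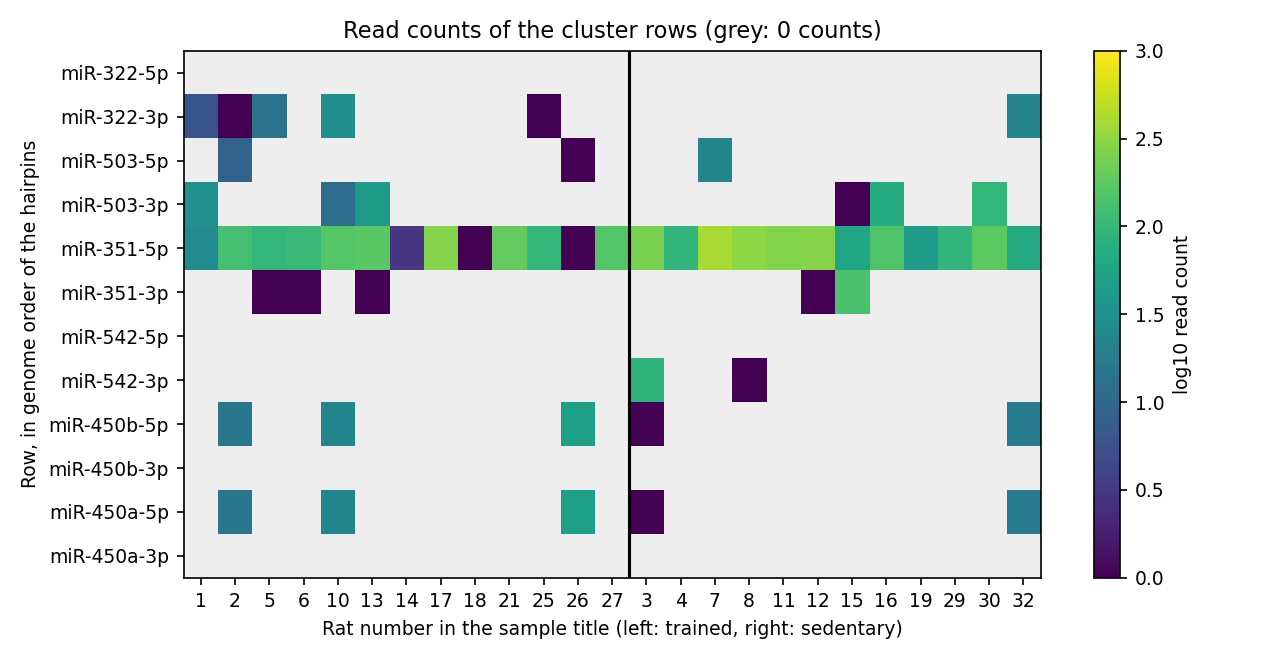
Read counts (colour, log10 scale; grey, 0 counts) of the 12 rows of the cluster, in genome order of their hairpins, in 13 trained (left) and 12 sedentary (right) libraries. The miR-351-5p row is filled in all 25 libraries, 7 rows are filled in 2 to 6 libraries each, and 4 rows are empty.

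Of the strands of miR-322, which restrains the cell cycle in differentiating muscle, only the 3p strand was counted. Its counts were 31 in trained library 10, 14 in trained 5, 6 in trained 1, 1 each in trained 2 and trained 25, and 22 in sedentary library 32. The highest of these, in trained 10, was 908 CPM (exact binomial 95% interval 617 to 1288). In all, 5 of 13 trained libraries and 1 of 12 sedentary libraries had a count. The row fell under the filter of the main test, and its value without that filter is given with those of the other sparse members.

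The rows for miR-450a-5p and miR-450b-5p held equal counts in 25 of 25 libraries. Since their sequences are identical over the first 20 bases, the same reads may stand in both rows. They are counted once where the text says so and as separate rows elsewhere. They had 51 counts in trained library 26, 24 in trained 10, 16 in trained 2, 17 in sedentary 32 and 1 in sedentary 3. The level was 372 CPM in trained 26 and 703 CPM in trained 10. Both 3p strands, miR-450a-3p and miR-450b-3p, had 0 counts.

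miR-503-5p, whose hairpin neighbours that of miR-322 and which acts on cyclins, had 23 counts in sedentary library 7, 9 in trained 2 and 1 in trained 26. The sedentary value was 124 CPM and the trained 2 value 252 CPM. Its opposite strand, miR-503-3p, had more counts, 260 in 6 libraries, of which sedentary 15 held a single count. The libraries holding one strand held none of the other (0 of 25 with both). Presence in 3 and 6 of 25 libraries leaves little room for overlap, and no link between the strands was tested. The highest miR-503-3p counts were 96 in sedentary 30 and 72 in sedentary 16.

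The remaining rows of the cluster completed this pattern. miR-351-3p had 142 counts in 5 libraries, of which 138 (97.2%) were in sedentary library 15. In that library miR-351-5p had 60 counts, so the order of the strands was turned there, while over all libraries the 5p strand had 3615 counts against 142. miR-542-3p, a further strand of the cluster, had 91 of its 92 counts in sedentary library 3, and miR-542-5p had 0. The 12 rows thus split into 8 with a count and 4 without, against 260 of 764 rows (34.0%) with a count in the whole table.

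Counting the miR-450 rows once, 16 libraries held miR-351-5p and no other member. 5 libraries held 2 members and 3 libraries (trained 10, trained 26 and sedentary 32) held 3 members. Trained library 2 held 4, all but miR-322-5p, with a total of 35685 counts. The deepest library, trained 27, with 202388 counts, held miR-351-5p alone. miR-322-3p and the miR-450 rows had 3 libraries in common, of 6 and 5, and no link between them was tested.

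Rows of like abundance outside the cluster were about as scattered. 83 such rows had totals between 33 and 260 counts, the range of the sparse cluster rows. They were present in a median of 4 libraries (quartiles 2 and 5, range 1 to 11), and their highest library held a median of 71.1% of their counts. With the miR-450 rows counted once, the 6 sparse cluster rows were present in a median of 5 libraries (range 2 to 6), with a median of 58.2% of counts in the highest one. Scattered presence was thus the usual state of rows with so few counts, and no difference from these rows was tested.

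**Figure D2:**
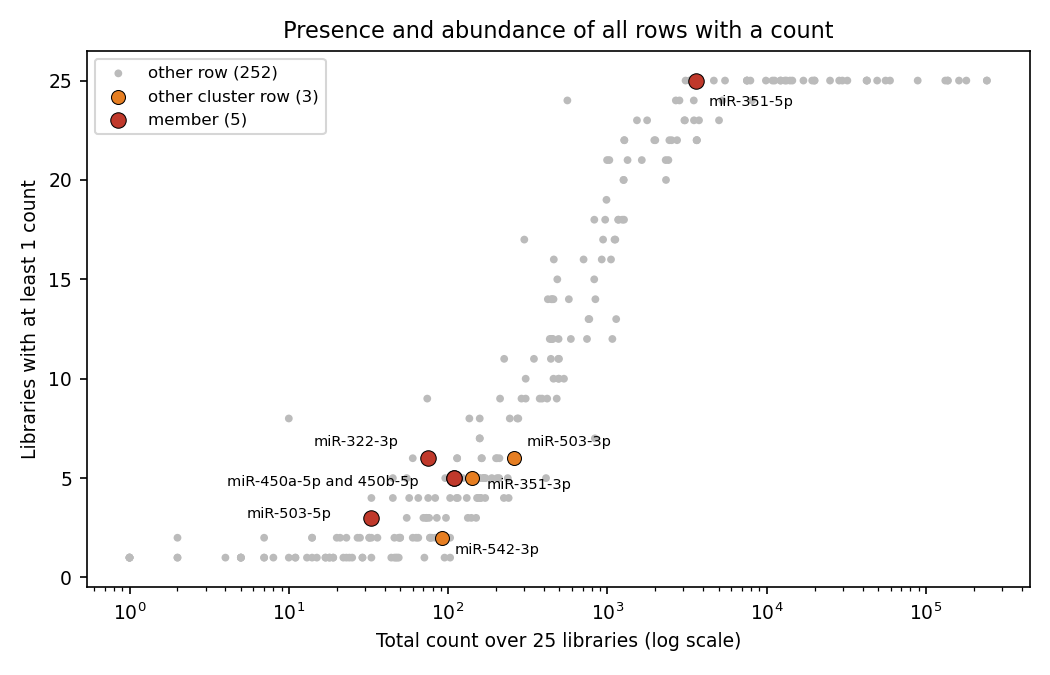
Number of libraries with at least 1 count against the total count over 25 libraries (log scale) for the 260 rows with a count. The 5 members with a count (red; miR-450a-5p and miR-450b-5p coincide) and 3 further cluster rows (orange) lie among the other rows, miR-351-5p at 3615 counts and 25 libraries and the others at 33 to 260 counts and 2 to 6 libraries.

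miR-351-5p varied over a wide range between trained rats and a narrower one between sedentary rats. In trained libraries it ranged from 7.29 through a median of 1128 to 4715 CPM (1997 ± 1766, SD, n = 13). In sedentary libraries it ranged from 719 through a median of 2718 to 3989 CPM (2557 ± 1202, SD, n = 12). 8 of the 13 trained values fell within the sedentary range, 4 below it and 1 above it, so the groups overlapped. A low value in a library can have several sources in these mitochondrial preparations. Fewer cells with the miRNA, less of it per cell, less in the isolated fraction and a sparse library cannot be told apart.

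The low end came from 3 trained libraries. Trained 14 had 3 counts (24.5 CPM, exact binomial 95% interval 5.06 to 71.6), trained 18 had 1 count (13.6 CPM, interval 0.345 to 75.9) and trained 26 had 1 count (7.29 CPM, interval 0.185 to 40.6). The next lowest trained level was 619 CPM in trained 25, from 97 counts, and no library of either group had more than 3 and fewer than 28 counts. The totals of these 3 libraries were 122365, 73449 and 137114 counts, beside a trained median of 72553. Trained 26, with its single count of miR-351-5p, was also the library with the most counts of the miR-450 rows, 51 (372 CPM). By level these rows were higher in trained 10 (703 CPM) and trained 2 (448 CPM). There miR-351-5p was at 4715 and 3587 CPM, so the rows did not run opposite throughout.

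**Figure D3:**
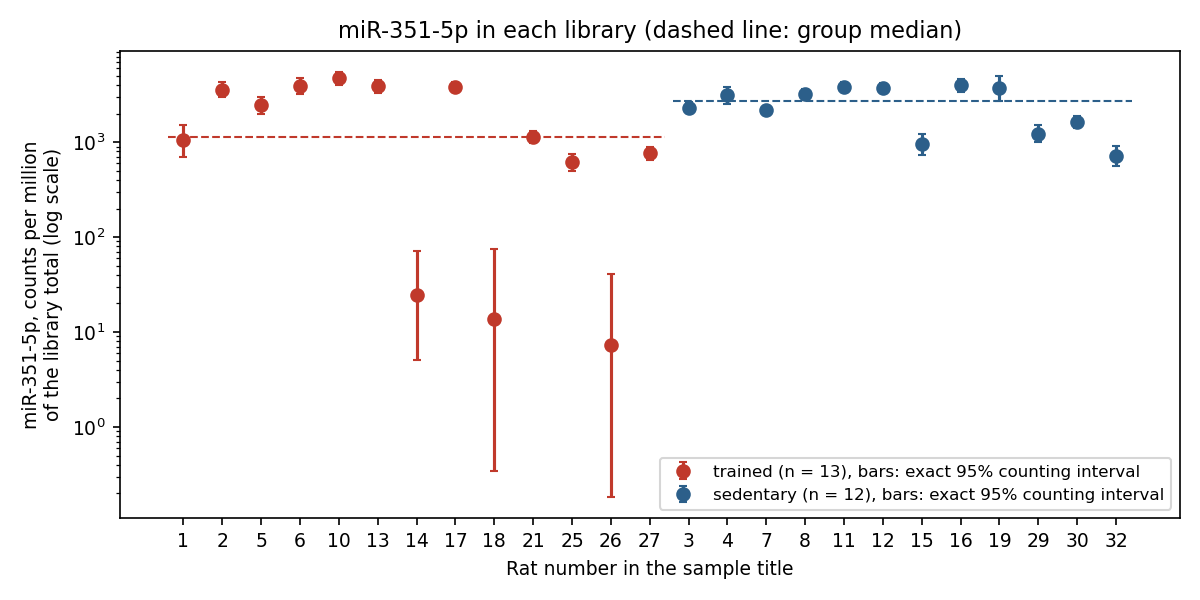
Level of miR-351-5p in each library, in CPM on a log scale, with exact 95% counting intervals and group medians (dashed). 10 trained libraries lie between 619 and 4715 CPM and 3 between 7.29 and 24.5 CPM, while the 12 sedentary libraries lie between 719 and 3989 CPM.

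Near-empty libraries were common among the rows tested. Of the 76 rows with enough counts for the test, 45 had at least 1 library with 3 or fewer counts, and 40 had at least 3. Among the 20 tested rows nearest to miR-351-5p in total count, 16 had at least 3 such libraries, with a median of 5. Having 3 or more of them in one group and none in the other was seen for miR-351-5p, miR-125a-5p, miR-541-5p and miR-28-3p in trained rats and for miR-199a-3p and miR-100-5p in sedentary rats. The 3 libraries lowest in miR-351-5p had 19 (trained 14), 18 (trained 18) and 10 (trained 26) of the 76 rows at 3 or fewer counts. Over the series this number ranged from 0 in sedentary 32 to 27 in trained 17. Trained 17 had 276 counts of miR-351-5p, the highest count in the trained group. Whether sparse libraries account for the 3 low values was not tested.

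Markers of other cells gave the following values beside these libraries. Connective tissue miRNAs took 0.0548% of counts in trained 14, 0.436% in trained 18 and 0.880% in trained 26, within a range of 0.0548% to 0.949% in trained and 0.0161% to 1.62% in sedentary libraries (5 of 6 markers detected, miR-29b-3p at 0). Smooth muscle miRNAs took 2.47%, 3.00% and 3.41%, in ranges of 0.805% to 3.41% and 0.828% to 5.49% (3 of 3 detected). These shares were nearly all miR-143-3p (55782 counts), as miR-145-5p had 212 counts in 9 libraries and miR-145-3p 8 in 1 library. Endothelial miRNAs took 0.847%, 0.491% and 0.855%, in ranges of 0.161% to 1.11% and 0.256% to 1.92% (3 of 4 detected, miR-126a-5p at 0). Leukocyte miRNAs took 0.0932%, 0% and 0.115%, in ranges of 0% to 0.419% and 0.00131% to 0.517% (3 of 6 detected, with miR-155-5p, miR-223-3p and miR-142-3p at 0). Most of their counts were of miR-146a-5p (3762), with 346 of miR-150-5p and 4 of miR-142-5p. On the erythrocyte list miR-486, which muscle expresses too, alone had counts, and miR-451-5p and both strands of miR-144 were at 0. miR-486 took 1.26%, 1.22% and 1.15% in the 3 libraries, near the low end of its ranges of 1.01% to 5.27% in trained and 1.00% to 4.75% in sedentary libraries. The part of these cells in the level of miR-351-5p was not tested.

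In the comparison of trained with sedentary rats, 0 of 76 rows passed (edgeR quasi-likelihood test on counts, two-sided, Benjamini-Hochberg adjusted p under 0.05; 0% called), and 1 of 76 (1.32%) had an unadjusted p under 0.05. miR-351-5p was the only member that passed the filter on low counts of this test. Its log2 fold change was -0.28 (SE 0.73, 95% interval -1.75 to 1.18, p = 0.698, edgeR adjusted p = 0.975), with TMM-scaled CPM (trimmed mean of M-values) of 2011 ± 1764 for trained rats (SD, n = 13) and of 2448 ± 1263 for sedentary rats (SD, n = 12). Over all 76 rows the median log2 fold change was -0.0081, with 37 rows positive and 39 negative. A permutation test of the unscaled level gave a difference of -559 CPM (p = 0.360, adjusted p = 0.706 over this level and the library total). The adjusted value is set by the library total. As miR-351-5p was chosen partly by its level, nothing is rested on this test. DESeq2 called 0 of 235 rows with an adjusted p (0%), and 8 of 260 rows had an unadjusted p under 0.05. limma-voom called 0 of 76 (0%), with 14 of 76 at an unadjusted p under 0.05. With no filter on low counts, edgeR called 66 of 260 rows (25.4%), and 0 of the 5 members with a count were among them. There the sparse members had log2 fold changes of 2.57 (SE 1.90, edgeR adjusted p = 0.424) for miR-322-3p, 2.78 (SE 1.93, edgeR adjusted p = 0.383) for each of the coinciding miR-450 rows and 0.62 (SE 1.47, edgeR adjusted p = 0.868) for miR-503-5p. These values rest on 3 to 6 libraries each and depend on the prior count of the fit. DESeq2, which also fitted these rows, gave each of the 5 members an adjusted p = 0.989.

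The size of the fold change depended on the tool. It was -0.31 with DESeq2 (SE 0.60) and -1.48 with limma-voom (SE 0.84, p = 0.0829, limma adjusted p = 0.301), which averages on a log scale.

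**Figure D4:**
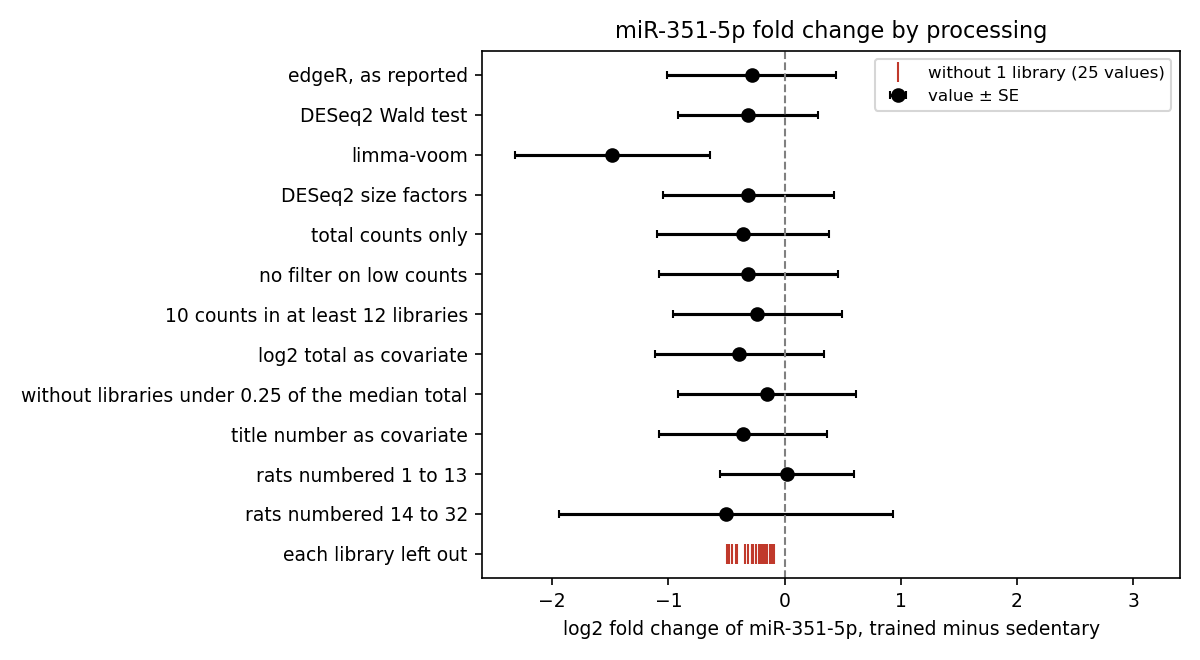
log2 fold change of miR-351-5p, trained minus sedentary, under each way of processing (points with SE bars) and with each of the 25 libraries left out (red ticks). 11 of the 12 points lie below 0, from -1.48 with limma-voom to -0.15, the value among rats numbered 1 to 13 is 0.022, and the ticks lie between -0.50 and -0.090.

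Median levels were lower at higher rat numbers in both groups, and this was not tested. Trained rats numbered 1 to 13 had a median of 3736 CPM (range 1045 to 4715, 6 rats) and those numbered 14 to 32 a median of 619 CPM (range 7.29 to 3804, 7 rats). The sedentary medians were 3177 CPM (range 2188 to 3837, 6 rats) and 1438 CPM (range 719 to 3989, 6 rats). The ranges overlapped within each group. The log2 fold change between trained and sedentary rats was 0.022 (SE 0.58) at numbers 1 to 13 and -0.50 (SE 1.44) at numbers 14 to 32, with edgeR adjusted p = 0.996 and adjusted p = 0.944. In a joint fit the change of the group difference between the ranges was -0.34 (SE 1.47, edgeR p = 0.816, adjusted p = 0.912). For this change 1 of the 76 rows, not miR-351-5p, had an edgeR adjusted p under 0.05. Totals moved with the numbers in trained rats, from 26793 to 43510 counts in the lower range and from 72553 to 202388 in the higher one, so number and depth cannot be told apart there. This boundary was taken from an earlier look at these data, and the labels do not call the numbers a batch.

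Both rows that share the seed of miR-351-5p had higher totals, miR-125a-5p with 7907 counts and miR-125b-5p with 7522, each in 25 of 25 libraries. Sedentary library 7 alone held 34.1% of the miR-125a-5p counts. The median level of miR-125a-5p was 1047 CPM in trained rats, under the 1128 CPM of miR-351-5p, and 4634 CPM in sedentary rats, above its 2718 CPM. For miR-125b-5p the medians were 2275 and 5248 CPM. miR-125b-5p is uncertain as an entry, since the row for miR-3588 held the same count in all 25 libraries. Of the counts of the 3 rows, miR-351-5p held a median of 20.4% in trained (range 0.288% to 96.5%) and 23.6% in sedentary libraries (range 5.65% to 61.6%), and it was the highest of the 3 in 6 of 25 libraries. In trained 21 it held 96.5% of 199 counts, and in sedentary 7, the library with the most counts of the 3 rows, 8.17% of 4981. Trained 14 had 96 counts of miR-125a-5p and 7 of miR-125b-5p, trained 18 had 1 and 91, and trained 26 had 134 and 212. So 1 of the relatives also had fewer than 10 counts in trained 14 and in trained 18, and neither did in trained 26. Such low counts were seen elsewhere too, as miR-125a-5p reached 10 counts in 22 of 25 libraries and miR-125b-5p in 18. Trained 17 had 2 counts of miR-125a-5p beside 276 of miR-351-5p, and trained 21 had 3 beside 192.

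**Figure D5:**
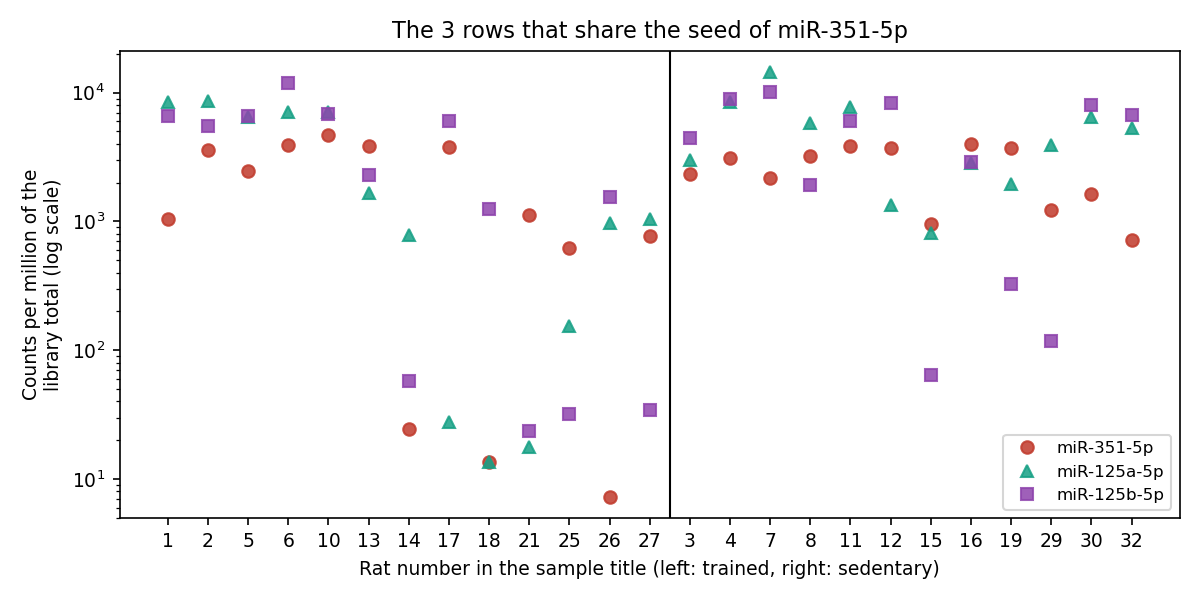
Levels of miR-351-5p, miR-125a-5p and miR-125b-5p, which share a seed, in CPM (log scale) in each trained (left) and sedentary (right) library. miR-351-5p is the highest of the 3 in 6 libraries, and in trained 26 it lies at 7.29 CPM below 977 and 1546 CPM.

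The seed of miR-322-5p was hardly present. Of the 5 rows matched to a sequence with this seed, 2 had a count, 129 counts in all (0.00616% of the series) in 4 libraries. With miR-503-5p, whose seed differs in its last base, and miR-15a-5p, which was taken by name, the 7 rows had 162 counts. miR-16-5p had 44 counts in sedentary 7 alone, and miR-195-5p had 81 of its 85 counts in sedentary 29. miR-15a-5p, miR-15b-5p and miR-497-5p had 0 counts, as had miR-322-5p. miR-195-3p, the opposite strand of miR-195-5p, had 940 counts in 17 libraries, and 1 library held both strands. No source used here says whether the authors emptied entries or dropped reads matching more than 1 miRNA, and a listed 0 does not establish that the miRNA was absent.

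The rows whose levels ran most like that of miR-351-5p were ranked by Spearman's rho of TMM-scaled CPM over the 25 libraries, among the 75 other rows tested. miR-99b-5p came first (rho 0.55), followed by miR-125b-5p and the coinciding miR-3588 (0.50), miR-30c-2-3p (0.50) and miR-486 (0.41), a miRNA of muscle and red cells. The lowest was miR-25-3p (-0.44), and the median over the 75 rows was -0.035. These values are descriptions, as all rows share the libraries and their depth. In the 3 libraries with the fewest miR-351-5p counts, miR-99b-5p had 263, 362 and 455 counts, while miR-30c-2-3p had 0, 1 and 5. miR-30c-2-3p also had 0 counts in trained 17, 21, 25 and 27 and in sedentary 29 and 30. In these libraries miR-351-5p had 276, 192, 97, 156, 94 and 175 counts, so the low values of the 2 rows often fell apart.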

How the data were processed

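Small RNA reads of mitochondrial preparations from 25 rats were analysed, with groups taken from the sample titles. The authors deposited raw counts per mature miRNA and a normalized signal, the count divided by 1 size factor per library (constant to a relative deviation of 1.59e-09). All 16275 empty cells of the count table are 0 in the normalized table and were read as 0. DESeq2 1.36 and fastp 0.20.0 are named in the submitters' processing notes. Per the labels' protocols, adapters were used at 0.3 of their strength with 20 PCR cycles. No source used here gives the aligner, the counter or the treatment of reads with several matches.

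Total counts ranged from 12181 to 202388 per library. No pair of libraries within a group was a copy (over 144 pairs, the chi-square per degree of freedom was at least 20.7). The main test was edgeR 4.0.16 (R 4.3.3), quasi-likelihood, TMM factors, filterByExpr (minimum count 10, minimum total 15), without covariates, with Benjamini-Hochberg adjustment over all 76 rows kept. Presence meant at least 1 count. Permutation tests used 100000 resamples (numpy 2.4.6), and exact intervals scipy 1.17.1. Both tests were checked on simulated data. Alternatives were DESeq2 1.42.0, limma-voom (limma 3.58.1), other scalings, filters and covariates, and leaving libraries out. Rat numbers were used as a covariate and as 2 ranges only after seeing the data. Sequences matched for 6 of 6 members and for 687 of 764 rows, and came from RefSeq, GRCr8.

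Named miRNAs were the 6 members, the other rows of the cluster, rows of the same seed, and the 5 tested rows most like miR-351-5p with the least alike. The rows with near-empty libraries in one group were named after their values were seen. The members and lists were chosen with earlier results of these data known.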

Additional observations from a re-analysis of the deposited data

How the results depend on the processing

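0 miRNAs were called in 10 of 11 other settings and without each of the 25 libraries (range 0 to 0). The exception was no filter on low counts, with 66 calls, none of them a member. The cause was not tested. The setting without libraries under 0.25 of the median total left out sedentary 19 alone, so it repeats the fit without that library. The log2 fold change of miR-351-5p kept its negative sign in 10 of 11 other settings and in 25 of 25 settings without a library (range -0.50 to -0.090, edgeR adjusted p 0.883 to 0.999), and was 0.022 among rats numbered 1 to 13. The value without sedentary library 12 was -0.090. Its difference in CPM ranged from -786 to -393 without a library (permutation p 0.190 to 0.521). Presence stayed within the exact interval for 25 libraries in every setting tried. These intervals are wide (0.637 to 7.80 libraries for miR-503-5p) and do not measure the effect of a count limit, so this says little. At least 10 counts were seen in 22 libraries for miR-351-5p, 4 for each miR-450 row, 3 for miR-322-3p and 1 for miR-503-5p. Of the 5 rows most like miR-351-5p, 4 stayed with shares of the library total and 1 with Pearson's r of log2 values. No paired analysis was possible because the title numbers are not shared between groups.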
